A study of Mus musculus with 6 samples.

Results

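The mRNA levels of 54 mitosis and cytokinesis genes were followed in activated primary mouse CD4+ T cells. The genes were taken from a list of symbols that names mitotic kinases and cyclins, spindle checkpoint proteins, kinetochore proteins, mitotic motors, condensin subunits and cytokinesis factors, and each symbol was found once among the 23420 genes of the expression table. All 54 were among the 10607 genes with enough reads to be tested, and 52 had at least 10 counts in every library. The lowest single count was 7, for Cenpk.

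CD4+CD62L+ cells were isolated from spleens of Balb/c mice aged 12 weeks and stimulated with plate-bound anti-CD3/28. At 24 h they received concentrated virus that carried either a scrambled shRNA or an shRNA against Dyrk1a, 24 h later they were fed medium with IL-2, and after another 48 h they were harvested. Of the cells with the scrambled shRNA, 1 group also received 3.7 µM harmine. This made 3 groups of 2 libraries each: the scrambled shRNA alone (called control), the scrambled shRNA with harmine, and the Dyrk1a shRNA without harmine. All groups, the controls included, therefore carried a virus and were stimulated in the same way, and only the addition of harmine separates the first group from the second. No source used here says whether replicates came from separate animals or cultures, so the p-values below measure the spread between these libraries, which may be technical.

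Mitosis is driven by CDK1 bound to cyclin A or cyclin B, which CDC25 phosphatases switch on. Kinetochores, built on centromeric chromatin, attach chromosomes to the spindle. The spindle checkpoint holds back the anaphase-promoting complex until every chromosome is attached. Condensin and topoisomerase II compact and untangle the chromosomes, kinesin motors shape the spindle, and the central spindle and a contractile ring then divide the cell. In proliferating lymphocytes these genes are transcribed mainly late in the cell cycle, and in resting cells they are held down by the DREAM complex, which acts through a promoter sequence known as the CHR (cell cycle genes homology region). DYRK1A is a protein kinase that phosphorylates a subunit of DREAM and favours its assembly, and harmine is a plant alkaloid that inhibits the kinase activity of DYRK1A.

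Total counts differed between libraries: 1743428 and 1096345 in the control group, 3441063 and 3747648 with harmine, and 2678872 and 3274050 with the Dyrk1a shRNA, so the control libraries were the shallowest. Dyrk1a mRNA, the target of the shRNA, stood at 58.2 and 82.5 CPM (counts brought to a common library size) in the control libraries, 74.6 and 77.4 with harmine, and 60.0 and 61.7 in the libraries labelled Dyrk1a shRNA. The shRNA libraries lay within the range of the controls, with a log2 fold change of -0.19 and a 95% interval from -0.64 to 0.25, so the mRNA gave no check of that label. The 9 CD4+ T cell markers that were measured summed to 4020 to 4722 CPM in the 6 libraries, and Cd4 itself lay between 295 and 381 CPM. Markers of B cells (79.5 to 126 CPM), myeloid cells (25.6 to 70.1) and erythroid cells and platelets (18.7 to 34.4) were low. The list for CD8+ T and NK cells summed to 1214 to 1967 CPM. Of this, Gzmb, a granule protease that activated CD4+ T cells can also make, held 1150 to 1851. In the same list Cd8a lay between 0.841 and 4.21 CPM and Cd8b1 between 14.3 and 22.5.

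Compared per kilobase of transcript, the members spanned a wide range of levels. Ube2c, the ubiquitin-conjugating enzyme of the anaphase-promoting complex, was the most abundant at 125 CPM per kb averaged over the 6 libraries. It was followed by Cenpa, the histone H3 variant that marks centromeres, at 105 CPM per kb. Aurkb, the kinase of the chromosomal passenger complex, reached 56.3 CPM per kb, and the cyclins Ccnb2 and Ccna2 reached 55.8 and 55.0. At the other end stood Aspm, a spindle pole protein, at 2.20 CPM per kb, and Cenpi, a subunit of the inner kinetochore, at 2.88. The median member lay at 13.6 CPM per kb. Without division by length, the members ran from 4.81 CPM (Cenpk) to 236 CPM (Top2a), with a median of 41.3 CPM against 30.0 CPM for all genes tested.

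Promoter sequences of 46 of the 54 members were found in the RefSeq table of mouse promoters (GRCm38.p6), which holds 250 bases before and 50 bases after each gene start. Aurkb, Ccna2, Cdc25c, Incenp, Kif20a, Smc4, Spc24 and Tpx2 had no entry. The letters of the CHR, TTTGAA, searched on both strands, occurred in 33 of the 46 members (71.7%), against 13.9% of the tested genes with an entry and 20.2% of all genes in the table. The CCAAT box, the letters bound by NF-Y, occurred on either strand in 36 of the 46 (78.3%), against 43.2% of the tested genes and 41.1% of all genes. Both were present in 29 members (63%) and in 5.83% of the tested genes. In the second mitosis list and the DNA replication list described below, the CHR letters occurred in 38.5% and 17.9% of the genes with an entry. The CCAAT box occurred in 59% and 61.5% of them, and both motifs in 29.5% and 7.69%. A match to one motif can share at most 1 base with a match to the other, and a match of letters does not show that a factor binds there. The stretches below run from 100 bases before the start to 10 bases from it, on the coding strand, 5′ to 3′, with CHR and CCAAT letters of either strand in capitals. They are the promoters of those members described in full below that held both motifs within this stretch. They were thus picked for motifs near the start, and matches further away are not shown.
Ube2c (chr2:164769829-164769938, plus strand): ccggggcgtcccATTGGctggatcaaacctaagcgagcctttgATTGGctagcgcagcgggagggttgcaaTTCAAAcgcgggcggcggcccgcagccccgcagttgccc
Cenpf (chr1:189688077-189688186, minus strand): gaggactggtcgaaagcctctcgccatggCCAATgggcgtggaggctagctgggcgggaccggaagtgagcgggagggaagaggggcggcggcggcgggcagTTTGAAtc
Kif11 (chr19:37376282-37376391, plus strand): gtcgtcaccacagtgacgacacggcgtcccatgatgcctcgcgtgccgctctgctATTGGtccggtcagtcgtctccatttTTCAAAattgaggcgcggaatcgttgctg
Kif23 (chr9:61946790-61946899, minus strand): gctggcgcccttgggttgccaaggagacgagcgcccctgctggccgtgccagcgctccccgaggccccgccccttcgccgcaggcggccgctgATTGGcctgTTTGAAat
Top2a (chr11:99024180-99024289, minus strand): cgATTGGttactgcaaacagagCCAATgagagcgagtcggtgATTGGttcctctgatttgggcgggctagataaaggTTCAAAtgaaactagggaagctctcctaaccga
Prr11 (chr11:87108705-87108814, minus strand): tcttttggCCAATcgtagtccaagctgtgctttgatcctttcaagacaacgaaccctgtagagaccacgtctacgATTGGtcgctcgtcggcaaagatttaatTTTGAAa

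In these 6 stretches the CHR lay downstream of the CCAAT boxes. Its nearness to the gene start follows in part from how the stretches were picked. Ube2c and Prr11 held 2 CCAAT boxes and Top2a held 3. Over all members with an entry, 36 of the 46 CHR matches and 58 of the 86 CCAAT matches lay within 100 bases before the start or after it, and the median first base was at -2 for the CHR and -69.5 for the CCAAT box. The plot of motif positions shows the CHR matches gathered around the start and the CCAAT boxes upstream of it.

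**Figure D1:**
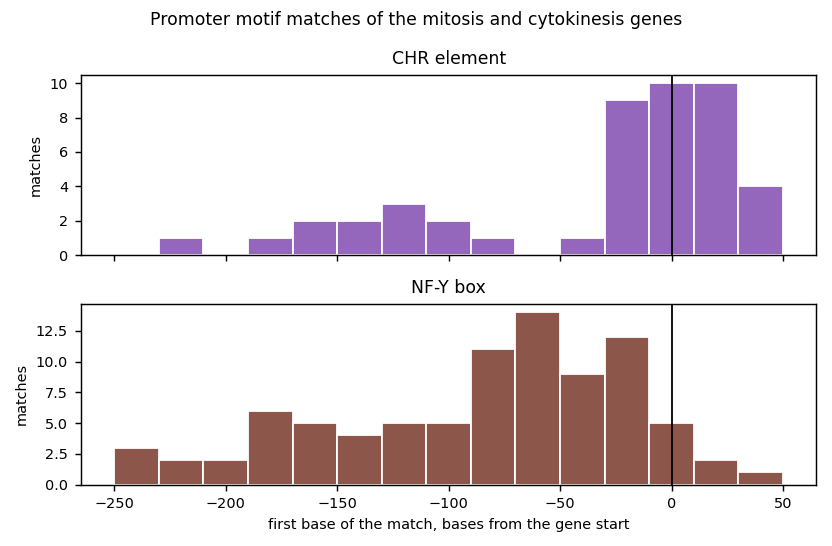
Number of CHR (upper panel) and NF-Y box (lower panel) matches on either strand by distance in bases from the gene start, for the 46 mitosis and cytokinesis genes with a promoter sequence. The black line marks the start; 36 of 46 CHR matches and 58 of 86 NF-Y box matches lie from 100 bases before it onwards.

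The members tended to stand high or low together in a library, within groups as well as between them. The median member stood 0.06 (log2) above its own mean over the 6 libraries in control replicate 1 and -0.18 from it in control replicate 2. With harmine the medians were 0.26 and -0.00, and with the Dyrk1a shRNA 0.04 and -0.14. Replicate 1 held the higher level for 37 of 54 members in the control group, for 48 with harmine and for 38 with the Dyrk1a shRNA, whereas among all genes tested the shares were 49.8%, 49.8% and 50.6%. Harmine replicate 1 was the highest of the 6 libraries for 32 members and the lowest for 0, while control replicate 2 was the lowest for 22 and Dyrk1a shRNA replicate 2 for 14. The summed level of the members was 3089 and 2626 CPM in the controls, 3606 and 3031 CPM with harmine, and 3045 and 2704 CPM with the Dyrk1a shRNA, so the group ranges overlapped. In RNA from whole cultures, a larger share of dividing cells and more of these transcripts in each dividing cell cannot be told apart.

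**Figure D2:**
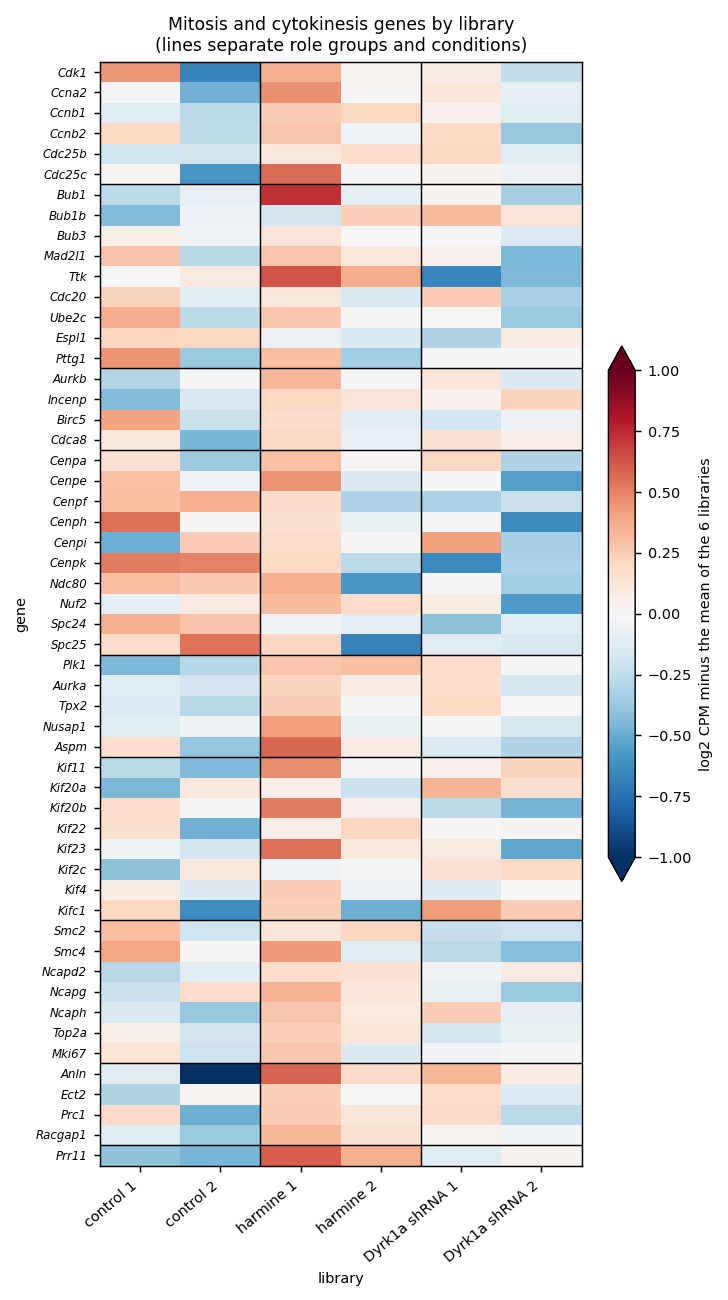
Level of each of the 54 genes (rows, grouped by role) in each library (columns), as log2 CPM minus the gene's mean over the 6 libraries; red is above and blue below that mean. Harmine replicate 1 is mostly red, and control replicate 2 and Dyrk1a shRNA replicate 2 are mostly blue.

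The first comparison, harmine against control, asks what the compound does to these transcripts. Most members had the higher mean with harmine, by small amounts: 43 of 54 had a log2 fold change above 0, against 47.5% of all genes tested, and the median was 0.24, against -0.02 for all genes. No member passed the adjusted threshold of 0.05 in edgeR's quasi-likelihood test, where 0.00943% of all genes passed and the smallest adjusted p of a member was 0.570. At an unadjusted p under 0.05, 7 members were higher and 0 lower with harmine, against 2.22% and 3.07% of all genes; DESeq2 put 3 members under that p and 0 past the adjusted threshold. The ranges of the groups did not overlap for 17 members that were higher (16.4% of all genes) and for 4 that were lower (15.9%). A single library carried much of the shift: without harmine replicate 1 the median was 0.11 with 34 members above 0, and without control replicate 2 it was 0.15 with 32 above 0. The 95% interval of a fold change reached a median of 0.50 (log2) to either side. Differences of this size in single members were thus not detected at this depth, spread and number of libraries. Summed markers of other cells also stood lower with harmine, though not evenly. The B cell list summed to 82 and 79.5 CPM against 126 and 95.1 in the controls, with 7 of its 8 tested genes below 0. The CD8+ T and NK cell list summed to 1315 and 1214 CPM against 1967 and 1452, with 5 of 7 below 0. Gzmb, which activated CD4+ T cells can also make, held most of that list, at 1249 and 1150 CPM against 1851 and 1390. Cd8a stood at 1.49 and 4.21 CPM with harmine against 1.25 and 0.841 in the controls. Cd8b1 stood at 16.9 and 14.5 CPM against 22.5 and 14.3, so the groups overlapped for Cd8b1. The erythroid and platelet list summed to 19.3 and 19.2 CPM against 34.4 and 26.1. The myeloid list summed to 37.7 and 26.1 CPM against 70.1 and 30.3, so the groups overlapped for it. Pax5 and Alas2 were at 0 in both harmine libraries and not in both controls. Itgax and Klrb1c were at 0 in both control libraries and not in both harmine libraries, and Ncr1 was at 0 in both groups. With the Dyrk1a shRNA, the erythroid and platelet list summed to 18.7 and 24.4 CPM, also below both controls. The myeloid list summed to 37.8 and 25.6 CPM and overlapped the controls. The B cell list (98.6 and 106 CPM) and the CD8+ T and NK cell list (1579 and 1483 CPM) lay within the range of the controls. The part of these other cells in the members' values was not tested.

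The member with the smallest p was Prr11, which encodes a proline-rich protein linked to cell cycle progression and lies on chromosome 11 from 87089153 to 87108708 (minus strand, GRCm38). It stood at 28.8 and 27.8 CPM in the controls, 58.5 and 49.2 CPM with harmine, and 35.2 and 39.4 CPM with the Dyrk1a shRNA. Both harmine libraries lay above every other library, and both shRNA libraries above both controls. Its log2 fold change with harmine was 0.92 (SE 0.23), with an adjusted p of 0.570 in edgeR. Leaving out each library in turn gave values from 0.80 to 1.04. Here and below, both treatments are compared with the same control libraries, so low controls alone would place both treatments above them. How often this pattern occurs among all genes was not counted.

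Among the cytokinesis factors, all 4 members were above 0, with a median of 0.37. Anln, which encodes the actin-binding scaffold anillin, stood at 16.9 and 8.41 CPM in the controls, 27.9 and 21.1 CPM with harmine, and 23.3 and 19.4 CPM with the Dyrk1a shRNA. The controls lay below the other 4 libraries but differed from each other, and control replicate 2 held only 10 counts of it. Its log2 fold change with harmine was 0.89 (SE 0.33, adjusted p = 0.903 in edgeR), and it was 0.53 without control replicate 2 and 1.52 without control replicate 1. Racgap1, the GTPase-activating subunit of centralspindlin, stood at 67.6 and 56.4 CPM in the controls, 92.4 and 81.3 CPM with harmine, and 74.9 and 72.0 CPM with the Dyrk1a shRNA. The order harmine, shRNA, control held for every library of Racgap1, and the log2 fold change with harmine was 0.48 (SE 0.20, adjusted p = 0.905 in edgeR). The other cytokinesis members, Ect2 and Prc1, had log2 fold changes of 0.27 and 0.27.

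The 5 spindle kinases and assembly factors were likewise all above 0, with a median of 0.32 and a range from 0.27 (Nusap1) to 0.68 (Plk1). Plk1, the polo-like kinase needed for spindle assembly and mitotic entry, stood at 23.2 and 26.1 CPM in the controls, 38.9 and 39.5 CPM with harmine, and 36.3 and 31.4 CPM with the Dyrk1a shRNA. The controls were the lowest libraries of Plk1 and the harmine libraries the highest, and the replicates were close to each other. Its log2 fold change with harmine was 0.68 (SE 0.23, adjusted p = 0.903 in edgeR). Tpx2, the activator of Aurora A and the member of this group with the highest CPM, stood at 57.6 and 52.2 CPM in the controls, 75.2 and 62.4 CPM with harmine, and 73.0 and 63.2 CPM with the Dyrk1a shRNA. For Tpx2 the treated libraries overlapped each other and lay above both controls, with a log2 fold change of 0.32 (SE 0.21, adjusted p = 0.930 in edgeR) with harmine.

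**Figure D3:**
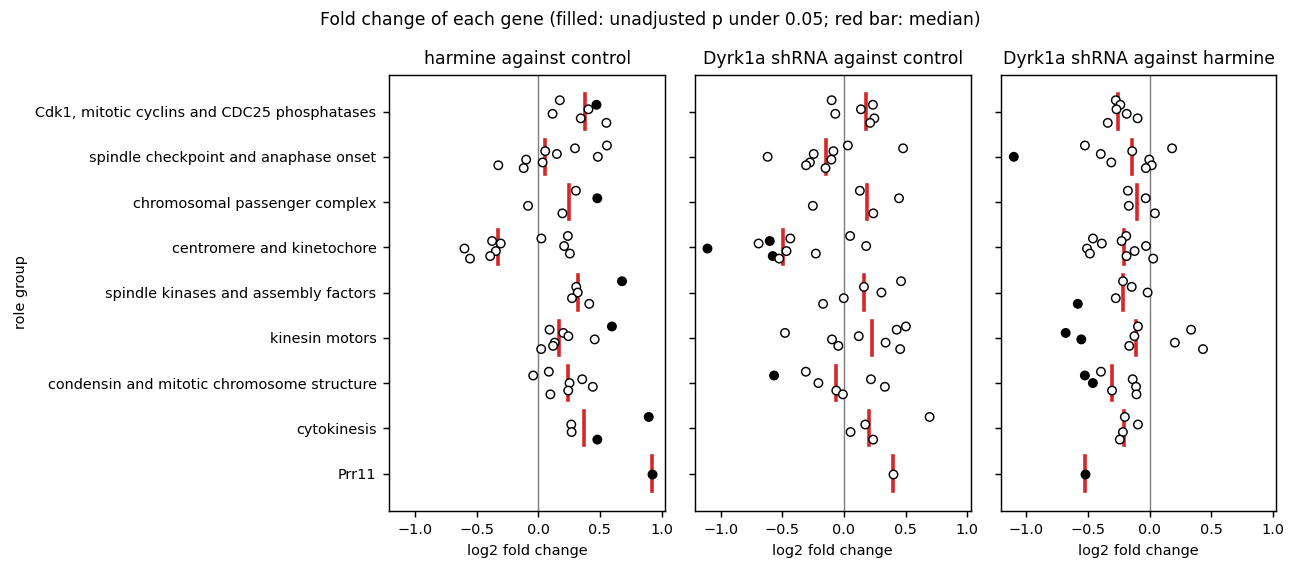
Log2 fold change of each of the 54 genes (circles) by role group in the 3 comparisons; filled circles have an unadjusted p under 0.05 and red bars are group medians. In harmine against control, the medians of all role groups except centromere and kinetochore (-0.32) lie above 0, and in Dyrk1a shRNA against harmine all medians lie below 0.

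All 8 kinesin motors were above 0 with harmine, from 0.02 (Kifc1) to 0.60 (Kif11), with a median of 0.17. Without harmine replicate 1 only 4 of the 8 were above 0. Kif11, the motor that pushes the spindle poles apart, stood at 27.5 and 24.4 CPM in the controls, 46.4 and 32.9 CPM with harmine, and 34.4 and 39.4 CPM with the Dyrk1a shRNA. Both treatments lay above the controls and overlapped each other. The log2 fold change of Kif11 with harmine was 0.60 (SE 0.25, adjusted p = 0.911 in edgeR), or 0.33 without harmine replicate 1.

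The 6 members around CDK1 were all above 0, with a median of 0.38 and a range from 0.12 (Ccnb2) to 0.55 (Cdc25c). Ccna2, which encodes cyclin A2, stood at 159 and 114 CPM in the controls, 220 and 162 CPM with harmine, and 174 and 149 CPM with the Dyrk1a shRNA. The harmine libraries lay just above the controls, with 162 against 159 CPM at the nearest, and the shRNA libraries overlapped both. The log2 fold change of Ccna2 was 0.47 (SE 0.21, adjusted p = 0.928 in edgeR) and was 0.24 without harmine replicate 1 and 0.26 without control replicate 2. Exons of Ccna2 overlap those of Exosc9 on the other strand, and the library kit does not mark strand, so part of its reads cannot be assigned with certainty. The controls disagreed on Cdk1, at 82.6 and 37.9 CPM, a gap that held the other 4 libraries, at 51.1 to 77.6 CPM.

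In the chromosomal passenger complex, 3 of 4 members were above 0, with a median of 0.25. Incenp, the scaffold that holds Aurora B, stood at 38.2 and 46.3 CPM in the controls, 60.0 and 56.9 CPM with harmine, and 53.5 and 60.5 CPM with the Dyrk1a shRNA. Both treatments lay above the controls for Incenp, and the log2 fold change with harmine was 0.48 (SE 0.21, adjusted p = 0.928 in edgeR). Aurkb stood at 88.9 and 109 CPM in the controls, 137 and 107 CPM with harmine, and 118 and 98.2 CPM with the Dyrk1a shRNA. All groups overlapped for Aurkb, with a log2 fold change of 0.30 (SE 0.20, adjusted p = 0.938 in edgeR) with harmine, or 0.12 without harmine replicate 1. Birc5, which encodes survivin, was the member below 0, at -0.08.

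Condensin and chromosome structure genes had 6 of 7 members above 0 and a median of 0.24. Top2a, DNA topoisomerase II alpha, stood at 245 and 206 CPM in the controls, 277 and 258 CPM with harmine, and 209 and 223 CPM with the Dyrk1a shRNA. The harmine libraries lay above all others for Top2a, by a log2 fold change of 0.24 (SE 0.18, adjusted p = 0.938 in edgeR) over the control. Smc4, an ATPase subunit shared by both condensins, was at -0.04, and Ncaph, the kleisin of condensin I, was at the upper end with 0.44.

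The spindle checkpoint and anaphase group was split, with 6 of 9 members above 0 and a median of 0.06, which was -0.01 without harmine replicate 1 and -0.09 without control replicate 2. Its range ran from -0.32 for Espl1, the cohesin-cleaving protease separase, to 0.56 for Bub1, a checkpoint kinase whose value came from harmine replicate 1 (49.3 CPM, against 27.4 in replicate 2 and 24.4 and 27.8 in the controls). Ube2c stood at 154 and 99.3 CPM in the controls, 144 and 118 CPM with harmine, and 119 and 92.0 CPM with the Dyrk1a shRNA. All groups overlapped for Ube2c, and its log2 fold change with harmine was 0.04 (SE 0.22, adjusted p = 0.989 in edgeR), with -0.11 without harmine replicate 1 and -0.24 without control replicate 2.

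The centromere and kinetochore genes were the role group with a median below 0 with harmine, at -0.32, and 4 of its 10 members were above 0. Leaving out single libraries moved this median between -0.43 and -0.03, the latter without harmine replicate 2, and it was -0.23 once trends with transcript length and GC content were removed. The range ran from -0.60 for Cenpk, a subunit of the inner kinetochore, to 0.26 for Nuf2, a subunit of the microtubule-binding NDC80 complex. Cenpa, the member with the highest CPM here, stood at 168 and 118 CPM in the controls, 186 and 153 CPM with harmine, and 175 and 123 CPM with the Dyrk1a shRNA. Replicate 1 of Cenpa was above replicate 2 in every group, the groups overlapped, and the log2 fold change with harmine was 0.24 (SE 0.22, adjusted p = 0.941 in edgeR), or 0.01 without control replicate 2. Whether the kinetochore genes differ from the other members in their response was not tested.

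**Figure D4:**
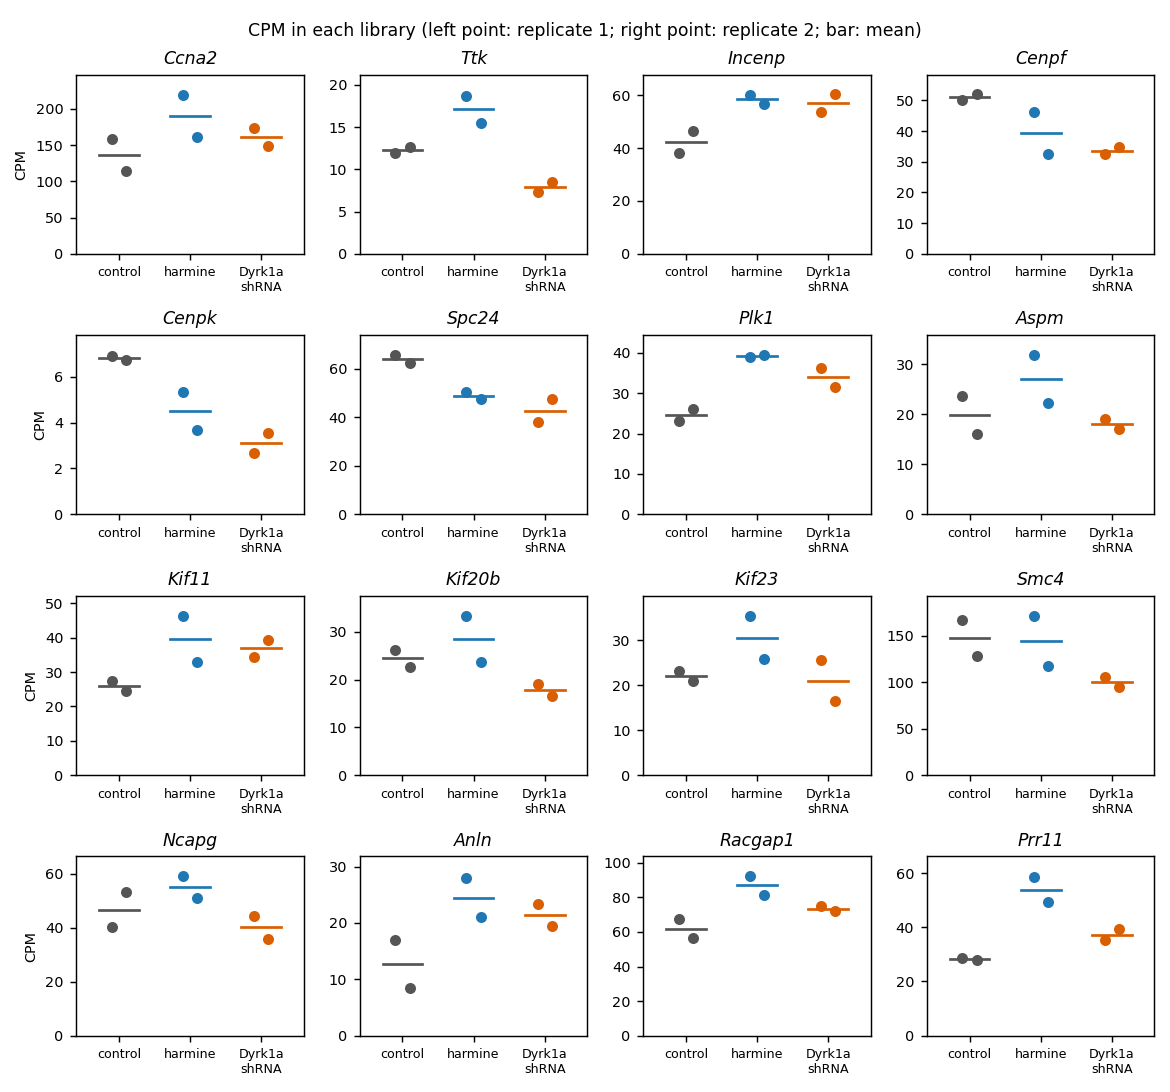
CPM in each library (points, replicate 1 left and replicate 2 right; bars are means) of the 16 genes with an unadjusted p under 0.05 in any of the 3 comparisons; each vertical axis starts at 0. Prr11 and Plk1 are highest in the harmine libraries, and Ttk, Kif20b and Smc4 are lowest in the Dyrk1a shRNA libraries.

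The second comparison, Dyrk1a shRNA against control, rests on libraries for which the level of Dyrk1a mRNA gave no check of the label. It used the same control libraries as the first comparison, so the fold changes of these comparisons were not independent. The members as a whole had no common direction: 26 of 54 were above 0, against 48.3% of all genes, and the median was -0.01 for both the members and all genes. No member passed the adjusted threshold in edgeR, where 0.0189% of all genes passed and the smallest adjusted p of a member was 0.612. At an unadjusted p under 0.05, 0 members were higher and 4 lower, against 3.1% and 4.59% of all genes, and DESeq2 put 2 under that p. With length and GC trends removed, an alternative chosen after seeing the data, 3 were higher and 2 lower at that p and 32 of 54 members were above 0. The groups did not overlap for 14 members that were higher (18.5% of all genes) and 11 that were lower (16.9%). Without Dyrk1a shRNA replicate 2 the median was 0.16, and without Dyrk1a shRNA replicate 1 or without control replicate 2 it was -0.14, so its sign followed single libraries.

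Of the 4 members that were lower at an unadjusted p under 0.05 in edgeR, 3 were kinetochore genes. The kinetochore group had 8 of 10 members below 0 and a median of -0.50. Its median stayed between -0.57 and -0.33 when each library was left out in turn and was -0.32 with length and GC trends removed. Cenpf, a large protein of the outer kinetochore, stood at 50.1 and 52.2 CPM in the controls, 46.4 and 32.6 CPM with harmine, and 32.5 and 34.7 CPM with the Dyrk1a shRNA. Both shRNA libraries lay well below both controls, and the log2 fold change of Cenpf was -0.60 (SE 0.23, adjusted p = 0.612 in edgeR). Spc24, a subunit of the NDC80 complex, stood at 65.7 and 62.3 CPM in the controls, 50.2 and 47.6 CPM with harmine, and 38.2 and 47.3 CPM with the Dyrk1a shRNA. For Spc24 the controls were the highest libraries and the shRNA libraries the lowest, with a log2 fold change of -0.58 (SE 0.21, adjusted p = 0.612 in edgeR). Cenpk stood at 6.88 and 6.73 CPM in the controls, 5.35 and 3.68 CPM with harmine, and 2.67 and 3.53 CPM with the Dyrk1a shRNA. These values rest on 7 to 18 counts a library, exons of Cenpk overlap those of Ppwd1 on the other strand, and the log2 fold change was -1.11 (SE 0.52, adjusted p = 0.645 in edgeR), or -0.57 with length and GC trends removed. Spc25, Ndc80 and Cenph also had both shRNA libraries below both controls, with log2 fold changes of -0.52, -0.47 and -0.69, while Cenpi and Cenpa lay above 0 at 0.18 and 0.05.

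The remaining member with an unadjusted p under 0.05 in edgeR was Smc4, the condensin ATPase. It stood at 167 and 129 CPM in the controls, 172 and 117 CPM with harmine, and 106 and 94.9 CPM with the Dyrk1a shRNA. The shRNA libraries of Smc4 were the lowest of the 6, and the controls and harmine libraries overlapped. Its log2 fold change against the control was -0.57 (SE 0.22, adjusted p = 0.612 in edgeR) and was -0.37 without control replicate 1. The condensin and chromosome structure group as a whole had 2 of 7 members above 0, from -0.57 for Smc4 to 0.33 for Ncaph, with a median of -0.06.

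Other role groups lay to either side of 0 with the Dyrk1a shRNA. All 4 cytokinesis genes were above 0, from 0.05 (Prc1) to 0.69 (Anln, adjusted p = 0.658 in edgeR), with a median of 0.20. The kinesins had 5 of 8 above 0 and ran from -0.48 (Kif20b) to 0.50 (Kif11, adjusted p = 0.665 in edgeR). The checkpoint and anaphase group had 7 of 9 below 0, from -0.62 (Ttk) to 0.48 (Bub1b, which encodes the checkpoint kinase BUBR1). The passenger complex (3 of 4 above 0, median 0.18), the spindle kinases and assembly factors (3 of 5, median 0.16) and the CDK1 group (4 of 6, median 0.17) lay slightly above 0. Prr11 was at 0.40 (adjusted p = 0.705 in edgeR).

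The third comparison set the libraries labelled Dyrk1a shRNA against those with harmine. Here most members had the lower mean with the shRNA: 7 of 54 were above 0, against 49.9% of all genes, and the median was -0.19, against -0.00. No member passed the adjusted threshold in edgeR, where 0.00943% of all genes passed and the smallest adjusted p of a member was 0.573. At an unadjusted p under 0.05, 0 members were higher and 7 lower, against 2.91% and 2.82% of all genes, and DESeq2 put 2 under that p. The groups did not overlap for 3 members that were higher (20.2% of all genes) and for 19 that were lower (20.7%). Without harmine replicate 1 the median was -0.04 and 19 members were above 0, and without Dyrk1a shRNA replicate 2 it was -0.13 with 17 above 0. Without harmine replicate 2, 4 members were above 0.

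Ttk, which encodes the spindle checkpoint kinase MPS1, was the member with the smallest p. The gene lies on chromosome 9 from 83834689 to 83872389 (plus strand, GRCm38). It stood at 11.9 and 12.6 CPM in the controls, 18.7 and 15.5 CPM with harmine, and 7.26 and 8.52 CPM with the Dyrk1a shRNA. No group overlapped another for Ttk, with harmine the highest and the shRNA the lowest. The log2 fold change between the treatments was -1.10 (SE 0.30, adjusted p = 0.573 in edgeR), and leaving out single libraries gave -1.23 to -0.96. The counts behind it were low, from 15 to 63 a library. Against the control, Ttk was at 0.48 with harmine and at -0.62 with the shRNA, both short of an unadjusted p of 0.05.

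Among the other members with an unadjusted p under 0.05 in edgeR were the motors Kif20b and Kif23 and the spindle pole protein Aspm. Kif20b, a kinesin that acts in the completion of cytokinesis, stood at 26.3 and 22.7 CPM in the controls, 33.3 and 23.7 CPM with harmine, and 19.1 and 16.5 CPM with the Dyrk1a shRNA. The shRNA libraries of Kif20b were the lowest of all, and the log2 fold change against harmine was -0.68 (SE 0.25, adjusted p = 0.827 in edgeR), or -0.42 without harmine replicate 1. Kif23, the motor subunit of centralspindlin, stood at 23.2 and 21.0 CPM in the controls, 35.4 and 25.8 CPM with harmine, and 25.6 and 16.5 CPM with the Dyrk1a shRNA. For Kif23 the nearest harmine and shRNA libraries were 25.8 and 25.6 CPM, and the log2 fold change was -0.55 (SE 0.26, adjusted p = 0.859 in edgeR), or -0.25 without Dyrk1a shRNA replicate 2. Aspm stood at 23.8 and 16.0 CPM in the controls, 31.8 and 22.4 CPM with harmine, and 19.1 and 17.0 CPM with the Dyrk1a shRNA. The controls of Aspm spanned the shRNA libraries, and the log2 fold change between the treatments was -0.58 (SE 0.26, adjusted p = 0.845 in edgeR), or -0.31 without harmine replicate 1. In the other direction, Kifc1, a minus-end motor, was the highest member at 0.43, with Kif20a at 0.34 and Kif2c, a microtubule depolymerase, at 0.20.

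All 7 condensin and chromosome structure genes were below 0 against harmine, from -0.53 (Smc4) to -0.11 (Mki67, the proliferation marker Ki-67), with a median of -0.30. Smc4 had an adjusted p of 0.830 in edgeR and a log2 fold change of -0.22 without harmine replicate 1 and -0.31 with length and GC trends removed. Ncapg, a subunit of condensin I, stood at 40.1 and 53.0 CPM in the controls, 59.1 and 50.8 CPM with harmine, and 44.3 and 35.9 CPM with the Dyrk1a shRNA. The controls of Ncapg spanned most of this range, and the log2 fold change was -0.46 (SE 0.21, adjusted p = 0.845 in edgeR), or -0.23 with length and GC trends removed. Exons of Ncapg overlap those of Lcorl on the other strand. Prr11 was at -0.53 (SE 0.20, adjusted p = 0.830 in edgeR). The CDK1 group (0 of 6 above 0, median -0.25), the spindle kinases and assembly factors (0 of 5, median -0.22), the cytokinesis genes (0 of 4, median -0.21), the kinetochore genes (1 of 10, median -0.21), the checkpoint and anaphase group (2 of 9, median -0.14), the kinesins (3 of 8, median -0.11) and the passenger complex (1 of 4, median -0.10) all had medians below 0.

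A second list of 105 mitosis and cytokinesis genes that are not members and a list of 48 DNA replication genes were set beside them. With harmine, 69 of the 105 were above 0 with a median of 0.12, and 34 of the 48 with a median of 0.16, against 0.24 for the members. With the Dyrk1a shRNA the counts against the control were 50 of 105 (median -0.02) and 28 of 48 (median 0.12). Against harmine they were 31 of 105 (median -0.16) and 20 of 48 (median -0.04). None of the 105 and none of the 48 passed the adjusted threshold in edgeR in any comparison. At an unadjusted p under 0.05, 8 of the 105 were higher and 0 lower with harmine, 6 higher and 3 lower with the shRNA against control, and 0 higher and 4 lower with the shRNA against harmine. For the 48, those counts were 1 and 0, 3 and 1, and 1 and 3. The members' median spread more between libraries than that of the other lists, as the plot of list medians shows.

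**Figure D5:**
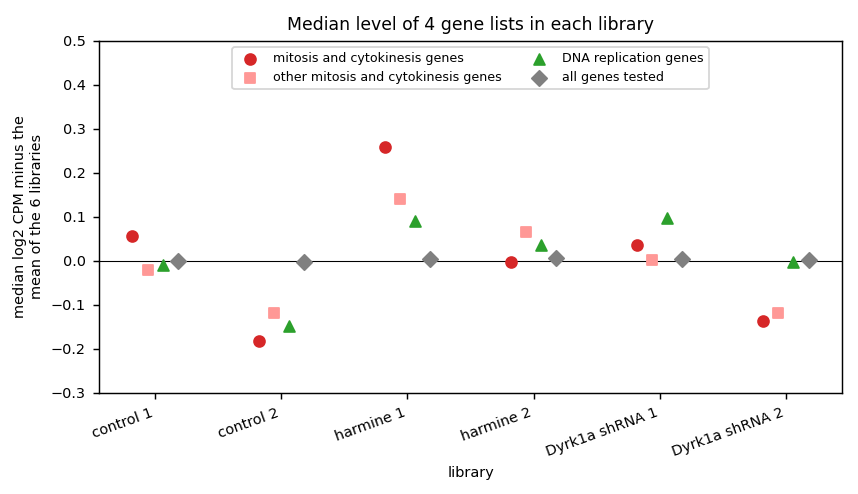
Median over each gene list (symbols) of log2 CPM minus the gene's mean over the 6 libraries, in each library. The median of all genes tested stays at 0, and the mitosis and cytokinesis genes run from -0.18 in control replicate 2 to 0.26 in harmine replicate 1.

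Of the second list, the genes with the smallest p with harmine were Nsl1 of the MIS12 kinetochore complex, Arhgap11a, Cdca2 and the kinesin Kif18b, with log2 fold changes of 0.90, 0.77, 0.80 and 0.73 and adjusted p of 0.784 or more in edgeR. Arhgap11a stood at 21.9 and 32.0 CPM in the controls, 48.1 and 42.4 CPM with harmine, and 46.6 and 39.1 CPM with the Dyrk1a shRNA, so both treatments lay above the controls. With the shRNA against control they were Fzr1, an activator of the anaphase-promoting complex (0.59), Arhgap11a (0.69), the condensin II subunit Ncaph2 (0.47) and Anapc10, a subunit of the anaphase-promoting complex (-0.85). Against harmine they were the kinetochore scaffold Casc5 (-0.99), the CDK-binding protein Cks2 (-0.49) and the kinesin Kif18a (-1.12). Kif18a stood at 13.4 and 5.53 CPM with harmine and at 3.06 and 5.29 CPM with the shRNA, so its value came mostly from harmine replicate 1.

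The members were also described by the CHR letters in their promoter window. With harmine, 28 of the 33 members with the letters were above 0 (median 0.24 on the log2 scale), as were 9 of the 13 without them (0.21) and 6 of the 8 with no entry (0.31). With the shRNA against the control, those counts and medians were 15 (-0.05), 5 (-0.15) and 6 (0.22). With the shRNA against harmine they were 6 (-0.19), 0 (-0.27) and 1 (-0.18). These values are descriptions, and the difference between members with and without the letters was not tested.

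Some members share sequence or exons with other genes. Besides Ccna2, Cenpk and Ncapg, exons of Cdc25b, Cdc20, Ube2c, Cdca8, Nusap1, Kif20a, Kif4 and Prc1 overlap a gene of the table on the other strand, and Ncapd2 holds a small RNA gene on its own strand. Kif4 also has a pseudogene copy in the table. Exons of Plk1, Cdc25c and Kif22 overlap genes on the other strand that are absent from the table. Top2a holds a small RNA gene on its own strand that is also absent. Values of these members carry that uncertainty. None of them apart from Ccna2, Cenpk, Ncapg and Plk1 had an unadjusted p under 0.05 in edgeR in any of the 3 comparisons.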

How the data were processed

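RNA of 6 libraries in 3 groups was reverse-transcribed with an oligo-dT primer and made into libraries with Nextera, a kit that does not mark strand. The authors deposited expected counts per gene, estimated with RSEM; their processing notes also name TopHat2 2.0.13, DESeq and the mouse build mm10 (GRCm38), while the annotation was not given in the sources used here. Rounded expected counts went into the robust quasi-likelihood test of edgeR 4.0.16 (R 4.3.3) after TMM scaling and a filterByExpr filter at a count of 10, in 1 fit of 3 group means, two-sided, with Benjamini-Hochberg adjustment over 10607 genes and a threshold of 0.05. CPM values use the TMM-scaled library sizes. The script was tested on simulated data. Transcript lengths and positions came from GENCODE M21, matched for 98.4% of genes. The members and all gene lists were chosen with earlier results of these data known. Full values are given for members with an unadjusted p under 0.05 in any of the 3 comparisons and for the member with the highest mean CPM in each role group; other members are given by ranges. Of the second mitosis list, up to 4 genes with the smallest p were named per comparison, and 1 of them is not reported here. Alternatives were DESeq2 1.42.0 (size factors and Wald test), scaling by library size, other filters, a replicate block, a fit of each pair of groups, leaving out each library, and, chosen after seeing the data, removal of length and GC trends. The study's flow cytometry and other assays were not used here.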

Additional observations from a re-analysis of the deposited data

How the results depend on the processing

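No mitosis or cytokinesis gene passed the adjusted threshold under any alternative that was run. The 16 members with an unadjusted p under 0.05, each in the comparison where it had that p, and the 5 other members described in full, for harmine against control, made 23 gene comparisons. Of their alternative values 318 kept the sign and 2 did not, both for Ube2c with harmine: -0.11 without harmine replicate 1 and -0.24 without control replicate 2, in a range from -0.24 to 0.39 when each library was left out. In the comparison with harmine, the median of the members was 0.11 to 0.33 and 32 to 48 of them were above 0 when each library was left out. For the Dyrk1a shRNA against control the median ran from -0.14 to 0.16. Against harmine, 4 to 19 members were above 0 when a library was left out, with a median from -0.33 to -0.04, and 11 were above 0 once length and GC trends were removed. The members with an unadjusted p under 0.05 numbered 4 to 9, 1 to 10 and 2 to 11 in the 3 comparisons when a library was left out.

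Counts of all genes past the threshold were 1 with harmine and 2 with the shRNA, each against the control, and 1 between the treatments, and they moved with the setting. For harmine against control they were 3 with the Wald test of DESeq2, 20 with no filter, 0 with a minimum count of 50, 0 with the replicate block, 0 with the pair alone, and 1 to 291 when a library was left out. For the Dyrk1a shRNA against control they were 28 with no filter, 5 with the pair alone, 4 with trends removed, and 1 to 439 when a library was left out. For the Dyrk1a shRNA against harmine they were 3 with scaling by library size, 2 with the Wald test, 22 with no filter, 0 with the replicate block, 4 with the pair alone, and 0 to 5 when a library was left out. Both of the highest counts came without control replicate 2, the shallowest library. Leaving out either control library leaves a lone control, which is then assumed to vary like the other groups. The causes were not tested.

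The labels do not say what a replicate number marks. The differences between replicates 1 and 2 correlated over all genes at 0.12 (control and harmine), 0.02 (control and shRNA) and 0.24 (harmine and shRNA). Libraries of the same number thus tended to deviate together, but weakly, and 1 of the 3 values was near 0. The libraries were not treated as paired. With the replicate block the members' medians were 0.25, 0.01 and -0.19, and 10, 6 and 11 members had an unadjusted p under 0.05, compared with 7, 4 and 7 without it. Over all genes tested, replicates differed by a median of 0.36 (log2) in the controls, against 0.21 with harmine and 0.21 with the Dyrk1a shRNA. A chi-square over the counts of the replicates was 10.1, 4.02 and 3.69 per degree of freedom, so the controls agreed least. The controls were the shallowest libraries and the least alike. With 2 libraries a group, differences of the size seen in single members could not be resolved.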
